A study of Drosophila melanogaster with 2 samples.

Results

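The cytochrome P450 family is the large gene family of haem enzymes that insert oxygen into fatty acids, steroid hormones and foreign compounds. The genes described here were all rows of the deposited counts whose FlyBase symbol starts with Cyp followed by a digit, with *Cyp4g1* left out. This rule took 81 of 15423 genes. It also caught *Cyp1* and *Cyp40*, a pair of peptidyl-prolyl isomerases of the cyclophilin family that share the prefix, so 79 rows, among them 2 pseudogenes, are P450 genes, and the counts below are over these 79. Each of the 79 had at least 3 unique molecular identifiers (UMIs, 1 for each captured RNA molecule).

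In flies, most P450s sit in the endoplasmic reticulum and take electrons from the reductase *Cpr*, with cytochrome b5 as a second donor. Members of the mitochondrial clan (a clan is a branch of the family tree) are supplied by ferredoxins instead. The CYP3 and CYP4 clans hold most members, and several of their genes are known for detoxifying insecticides and plant compounds in fat body, midgut and Malpighian tubules, whereas oenocytes, the hydrocarbon-making cells under the cuticle, are known for a P450 that finishes cuticular hydrocarbons.

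The series holds 1 female and 1 male single-nucleus sample of nephrocytes, the filtering cells of the fly kidney, dissected under a fluorescence microscope from adult w1118; Dot-Gal4, UAS-GFP.nls flies aged 5 to 7 days and kept at 18 °C. Each tube pooled 50 flies, and all animals carried the same Dot-Gal4 driver and nuclear GFP reporter, so no group lacks a transgene. The 2 count tables are called the larger matrix (7890 nuclei, 19107558 UMIs) and the smaller matrix (5978 nuclei, 18130609 UMIs), because they are not recorded under either sample and their columns name none. The larger carries female and the smaller male in its table name, which was not used to set groups, so neither was assigned to a sex here. With 1 matrix on each side, differences between them are values with an interval for counting error and no test.

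The median nucleus held 1315 UMIs in the larger matrix and 1481 UMIs in the smaller matrix, every nucleus held at least 500, and 14 barcodes occurred in both matrices. Nuclei were clustered without the P450 genes, and a cluster was called "X-like" where at least 4 markers of a cell type were raised at least 3-fold and its leading genes did not belong to another type. Cluster 15, with 4 raised trachea markers, and cluster 19, with 11 raised muscle markers, stayed unnamed because of their leading genes. Of 39 clusters, 25 stayed unnamed and are given by number with their leading genes. The labelled cell type was a minority, since only 97 of 13868 nuclei were nephrocyte-like, led by *sns*. Fat body-like nuclei numbered 1759, oenocyte-like nuclei 662 and midgut enterocyte-like nuclei 295. The 12 fat body markers summed to 32951 and 25561 CPM (UMIs of a gene per 1000000 UMIs of the group) in fat body-like nuclei of the larger and smaller matrix, against 7630 and 7124 CPM in oenocyte-like nuclei. The 11 oenocyte markers summed to 29615 and 20090 CPM in oenocyte-like nuclei, against 402 and 221 CPM in fat body-like nuclei, and the 13 midgut markers to 13480 and 11485 CPM in midgut enterocyte-like nuclei, against 129 and 117 CPM in fat body-like nuclei. No cluster raised more than 1 of the 12 epidermis markers, so epidermis was not named and no test was made for it. Male accessory gland-like (688) and spermatocyte-like (93) nuclei came from the smaller matrix only.

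Over all nuclei the 79 P450 genes gave 78694 UMIs. A few genes carried most of them. *Cyp6v1* had 19386 UMIs in 6181 nuclei (1.40 UMIs per nucleus, at most 51 in a nucleus) and *Cyp4aa1* had 14666 UMIs in 2461 nuclei (1.06 per nucleus, at most 65), and these 2 together held 43.3% of the family's UMIs, the top 10 members 76.4%. The median member had 227 UMIs, 54 members had at least 100 and 5 had fewer than 20, the lowest being *Cyp4c3* with 3. By clan, 38 CYP3 genes gave 38518 UMIs, 28 CYP4 genes 28406, 9 mitochondrial genes 7731 and 4 CYP2 genes 4039. Levels of different members are UMI counts and were not set per length, so only the same gene is compared between groups.

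The family's summed level was highest in cluster 1 (865 nuclei led by *zye*, the NADPH oxidase gene *Duox* and the fatty acid transport gene *Fatp2*) at 6332 CPM in the larger matrix and 5246 CPM in the smaller matrix, where 3 genes gave 92.9% of it. Fat body-like nuclei had 2664 and 2969 CPM, midgut enterocyte-like nuclei 2006 and 2241 CPM, and oenocyte-like nuclei 1617 and 1871 CPM, below the 2204 and 2018 CPM of all nuclei. *Cyp4g1*, left out by the rule, is in none of these sums. Nephrocyte-like nuclei had 1491 and 1401 CPM and cluster 9, the lowest, 620 and 691 CPM. The top 3 members held 42.4% of the family's UMIs in fat body-like nuclei, a smaller share than in cluster 1. That share was not particular to fat body-like nuclei. It was 42.3% in nephrocyte-like, 44.7% in muscle-like, 38.0% in Malpighian principal-like and 37.5% in trachea-like nuclei.

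**Figure D1:**
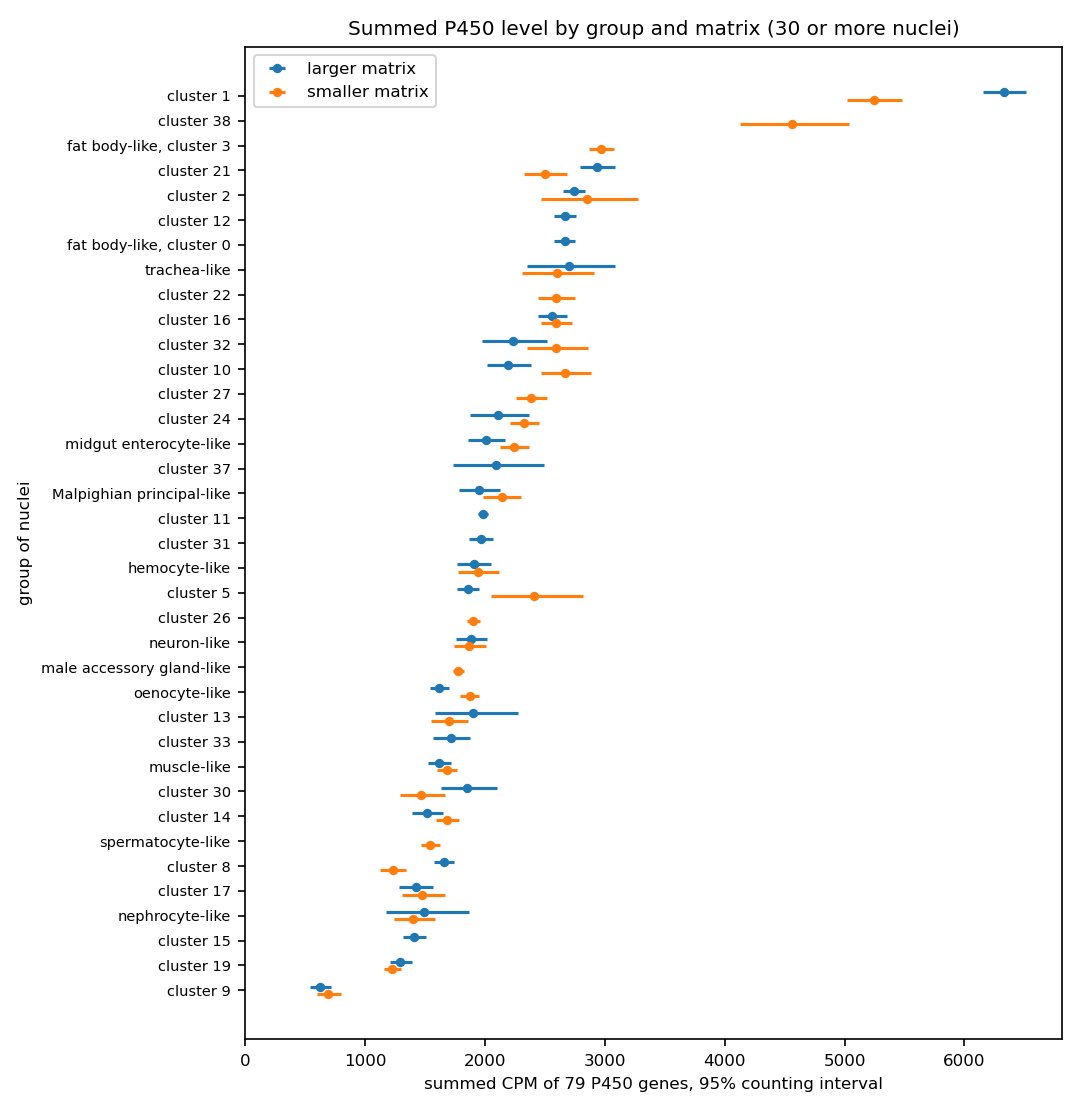
Summed CPM of the 79 P450 genes by group, for the larger and the smaller matrix, in groups of at least 30 nuclei. Cluster 1 stands highest at 6332 and 5246 CPM and cluster 9 lowest at 620 and 691 CPM.

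Members differed in how widely they were found. *Cyp6v1*, both matrices together, had at least 212 CPM in each of the 36 groups compared, while *Cyp313a4* had 83 of its 112 UMIs in trachea-like nuclei, *Cyp6a18* 139 of 205 in Malpighian principal-like nuclei and *Cyp6g2* 118 of 248 in cluster 30. Of the 54 members with at least 100 UMIs, 19 were highest in fat body-like nuclei (8.99% of all genes with as many UMIs) and 3 in midgut enterocyte-like nuclei (2.09%), counting groups with at least 20 UMIs of the gene. Counting all groups, small ones included, the numbers were 5 (5.08% of all genes) and 3 (1.70%).

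**Figure D2:**
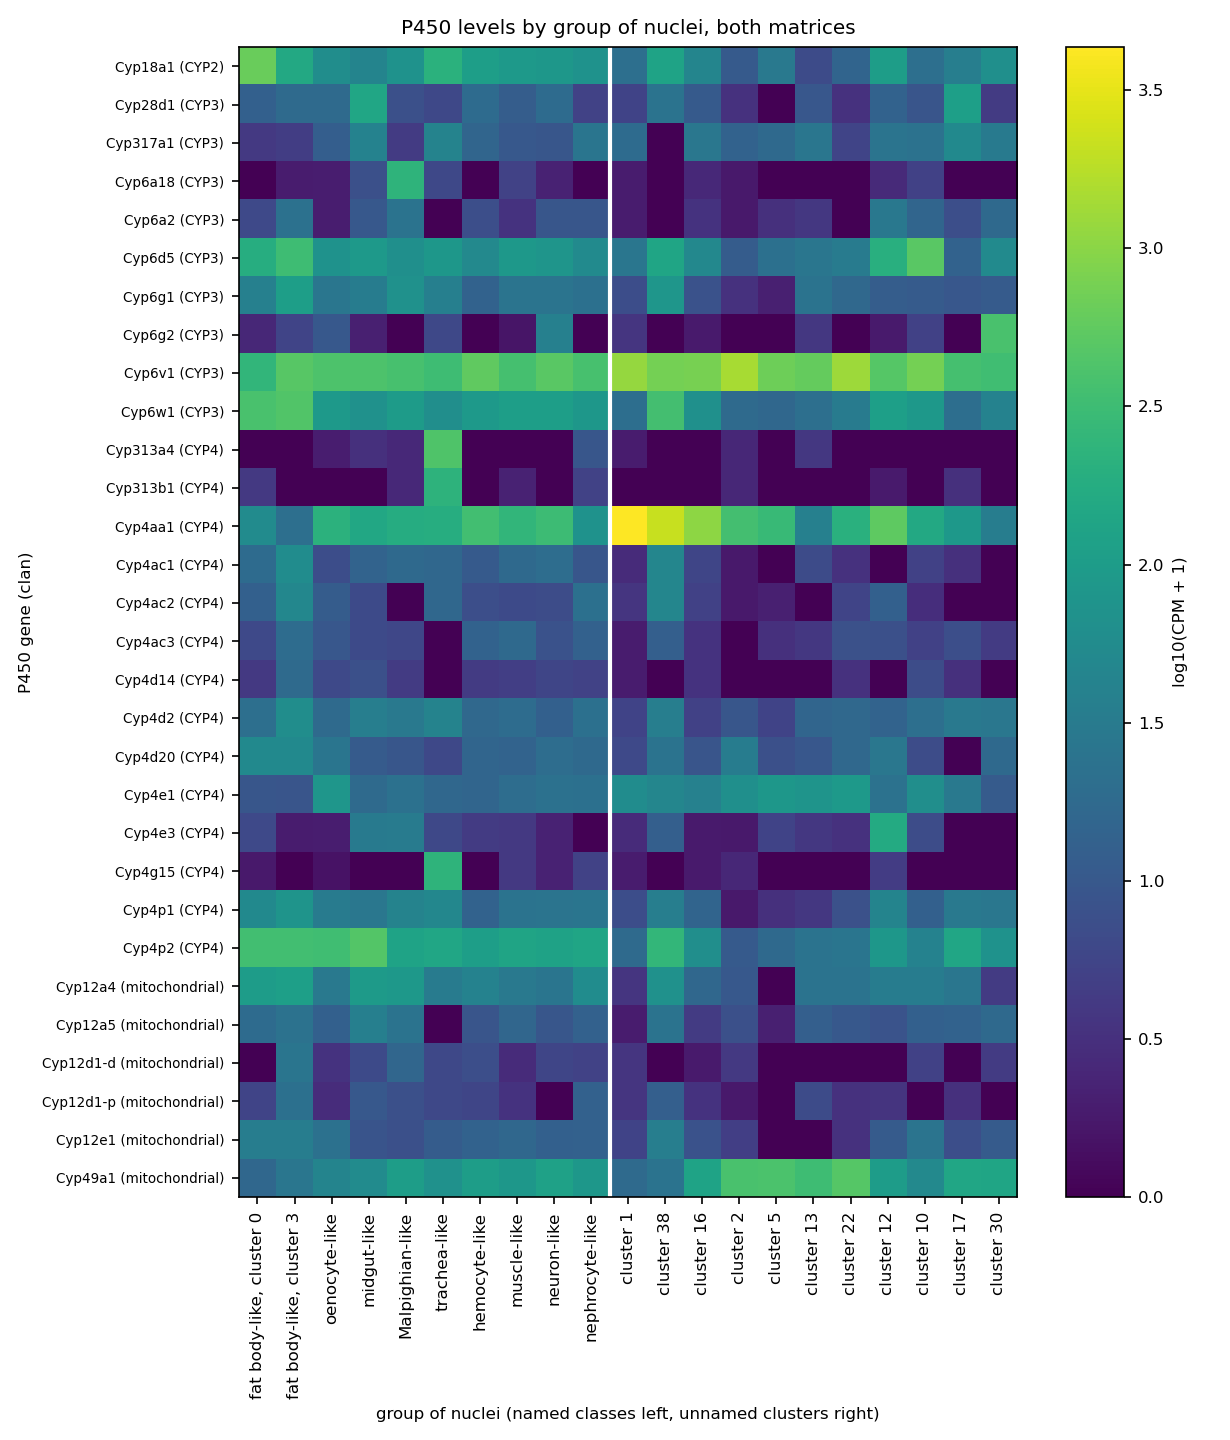
Level of 30 P450 genes in 21 groups, both matrices together, as log10(CPM + 1). Lighter cells are higher levels. *Cyp6v1* is light in every group and *Cyp4aa1* lightest in cluster 1, and *Cyp313a4* stands out in trachea-like, *Cyp6a18* in Malpighian principal-like and *Cyp6g2* in cluster 30 nuclei.

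The first comparison asked which P450 genes were higher or lower in fat body-like nuclei than in the mean of the 8 other named classes. UMIs were summed by class and matrix, and the sums were tested with the quasi-likelihood test of edgeR, p-values being adjusted by Benjamini-Hochberg over 5309 genes. Only 31 of the 79 members passed the filter on low counts, and nothing is said of the other 48. Of these 31, 15 were higher and 4 lower in fat body-like nuclei, while 22.0% of all genes tested were higher and 21.1% lower. The median log2 fold change was 0.96 over the 31 members and 0.0028 over all genes tested. Of the 15 higher members, *Cyp4ac1*, *Cyp4ac2*, *Cyp12b2* and *Cyp12e1* passed the filter only through their fat body-like sums, so a higher level was built into their selection, and the other 11 passed it without those sums.

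The 15 higher members were 3 of the CYP3 clan, 7 of the CYP4 clan, 4 of the mitochondrial clan and *Cyp18a1* of the CYP2 clan. *Cyp6w1*, a CYP3 gene, had 390 CPM (518 UMIs) and 447 CPM (489 UMIs) in fat body-like nuclei of the larger and smaller matrix, against 25.5 to 146 CPM (median 84.4) in the 16 sums of the other classes. None of these 16 sums came near, and the log2 fold change was 2.57 ± 0.18 (SE; adjusted p = 1.66723e-09, edgeR). Among unnamed clusters, cluster 38, with 35 nuclei in the smaller matrix only, had 355 CPM of *Cyp6w1* (31 UMIs). Its interval for counting error overlapped that of fat body-like nuclei. *Cyp6d5*, of the same clan, had 187 and 315 CPM against 0 to 125 CPM in the other named classes, again without overlap, and its log2 fold change was 2.11 ± 0.26. *Cyp6g1*, whose overexpression is known to give resistance to DDT, had 37.7 and 107 CPM against 0 to 97.0 CPM, so that the larger matrix overlapped the other classes (log2 fold change 1.68 ± 0.26).

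*Cyp18a1* encodes the hydroxylase that inactivates the moulting hormone ecdysone. It had 630.5 CPM (837 UMIs, 0.837 per nucleus) and 154 CPM (168 UMIs, 0.221 per nucleus) in fat body-like nuclei, against 32.3 to 280 CPM in the other classes, and its log2 fold change was 2.22 ± 0.19 (adjusted p = 6.74822e-09, edgeR). Only the larger matrix lay above every other sum of the named classes, the highest of which was trachea-like. Among unnamed clusters, cluster 33, with nuclei in the larger matrix only, had 426 CPM (118 UMIs). A UMI of *Cyp18a1* was found in 28.6% of fat body-like nuclei (17.0% after every nucleus was thinned to 500 UMIs), against 19.0% of neuron-like nuclei (4.74% thinned), a class not known for this gene. The median depths were 1053 UMIs in fat body-like and 1792 UMIs in neuron-like nuclei.

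The CYP4 genes that were higher included neighbours on the chromosome. *Cyp4ac1* (17.3 and 57.6 CPM; log2 fold change 1.84 ± 0.34) and *Cyp4ac2* (12.1 and 47.5 CPM; 2.75 ± 0.46) lie side by side with *Cyp4ac3* inside the receptor gene *tkv*, on its opposite strand. Their larger matrix levels lay within the range of the other classes, which reached 26.5 CPM for *Cyp4ac1* and 26.3 CPM for *Cyp4ac2*. Both passed the filter only through their fat body-like sums, and without the filter their log2 fold changes were 1.95 ± 0.33 and 2.86 ± 0.42. *Cyp4p1* (51.2 and 76.8 CPM; 1.47 ± 0.26) and *Cyp4p2* (340 and 340 CPM; 1.27 ± 0.16) lie in *hig*, likewise on the opposite strand. *Cyp4p2* was higher still in midgut enterocyte-like nuclei, at 351 and 518 CPM. *Cyp4d20* had 52.7 and 52.1 CPM against 0 to 38.7 CPM, without overlap (2.19 ± 0.31), while *Cyp4d2* (20.3 and 59.4 CPM; 1.06 ± 0.27) and *Cyp4e2* (39.2 and 85.0 CPM; 0.96 ± 0.29) showed the smallest changes called. Whether counting used the strand is not given in the sources used here, so reads of such a gene and of its host cannot be told apart with certainty.

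Of the 9 mitochondrial clan members 5 were tested, and 4 of these were higher and 1 lower. Among the higher ones, *Cyp12b2* and *Cyp12e1* passed the filter only through their fat body-like sums. Without the filter their log2 fold changes were 1.73 ± 0.30 and 1.87 ± 0.34. *Cyp12e1* had 33.1 and 33.8 CPM against 0 to 27.1 CPM in the other classes and did not overlap them (log2 fold change 1.77 ± 0.33). *Cyp12b2* (72.3 and 24.7 CPM; 1.65 ± 0.27), *Cyp12a4* (101 and 112 CPM; 1.56 ± 0.22) and *Cyp12a5* (17.3 and 22.8 CPM; 1.39 ± 0.48) overlapped at least 1 of them. Overexpression of *Cyp12a4* is known to give resistance to lufenuron. Midgut enterocyte-like nuclei were the class that came nearest or above for *Cyp12a4* (62.7 and 113 CPM) and *Cyp12a5* (47.0 and 29.6 CPM).

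Lower in fat body-like nuclei were 4 members, of the CYP4, CYP3 and mitochondrial clans. *Cyp4aa1* had 57.2 and 18.3 CPM in fat body-like nuclei, against 36.9 to 400 CPM (median 225) in the other classes (log2 fold change −2.25 ± 0.43; adjusted p = 2.07027e-04, edgeR). *Cyp49a1*, a mitochondrial clan member, had 15.1 and 25.6 CPM against 38.7 to 148 CPM, with no overlap (−1.75 ± 0.37). *Cyp4e1* had 9.04 and 7.31 CPM against 0 to 83.6 CPM (−1.20 ± 0.36), the top values being oenocyte-like, and *Cyp317a1* had 3.01 and 3.66 CPM from only 8 UMIs (−1.89 ± 0.58). When the nucleus with most UMIs of each member was left out of every sum, a check chosen after seeing the data, *Cyp4e1* (adjusted p = 0.0866) and *Cyp317a1* (adjusted p = 1.0) were no longer called in that edgeR fit, and 11 members were higher in place of 15, of 23 that passed the filter.

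**Figure D3:**
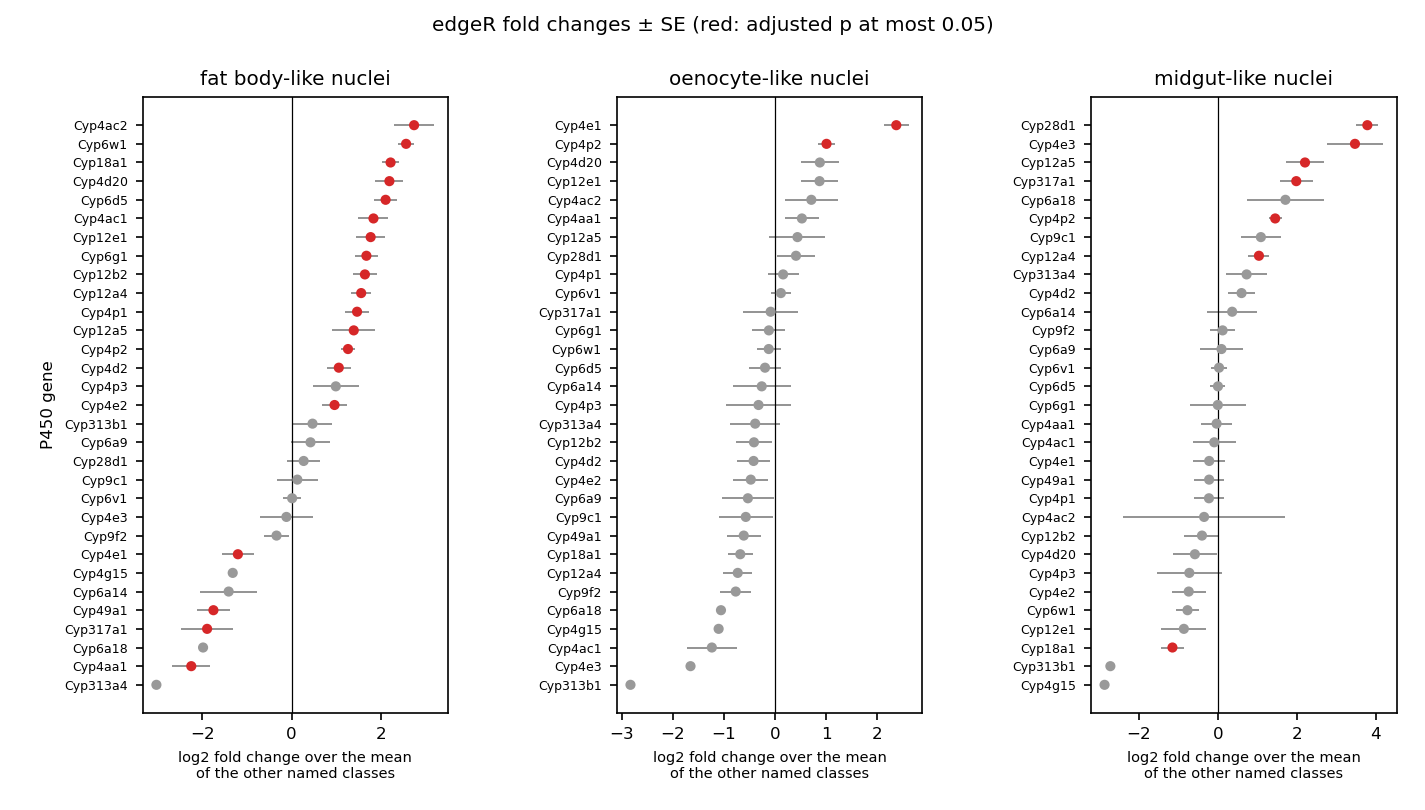
Log2 fold change (± SE) of the 31 tested P450 genes in fat body-like, oenocyte-like and midgut enterocyte-like nuclei against the mean of the other named classes, edgeR, red where the adjusted p was at most 0.05. Fat body-like has 15 red points above 0 and 4 below, oenocyte-like 2 and 0, and midgut enterocyte-like 6 and 1. SE bars above 5 are not drawn.

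The fat body-like class was not the same cluster in the 2 matrices. Cluster 0 (991 nuclei, all in the larger matrix) was led by the yolk protein genes *Yp1* and *Yp2*, and cluster 3 (768 nuclei, 759 of them in the smaller matrix) by *shd* and *Obp99b* beside P450 genes. *Yp1* had 13563 CPM in fat body-like nuclei of the larger matrix and no UMI in those of the smaller matrix. Comparing cluster 0 of the larger with cluster 3 of the smaller matrix, 41 members had at least 20 UMIs. Of these 3 were at least 2-fold higher and 15 at least 2-fold lower in cluster 0, against 12.5% and 6.0% of all genes with as many UMIs, and the intervals below cover counting error only.

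*Cyp18a1* had 632 CPM (835 UMIs) in cluster 0 and 154 CPM (168 UMIs) in cluster 3, a ratio of 4.11 (95% exact Poisson interval 3.48 to 4.89). *Cyp4aa1* (74 against 20 UMIs, ratio 3.06) and *Cyp12b2* (96 against 27 UMIs, ratio 2.94) were the other higher members. On the lower side were all members of the Cyp4ac trio, with ratios of 0.302 for *Cyp4ac1*, 0.255 for *Cyp4ac2* and 0.290 for *Cyp4ac3*. *Cyp6a2*, a detoxifying enzyme, had 7 UMIs in cluster 0 and 24 in cluster 3 (ratio 0.241), and *Cyp6g1* 49 and 117 UMIs (ratio 0.347, interval 0.243 to 0.488). *Cyp12d1-d* had no UMI in cluster 0, which allows up to 2.27 CPM, and 27 UMIs (24.7 CPM) in cluster 3, and its tandem copy *Cyp12d1-p* had 6 and 23 UMIs (ratio 0.216). *Cyp12d1-d* and *Cyp12d1-p* are near-identical, so the split between them is uncertain.

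The same comparison was made for oenocyte-like nuclei, and fewer members stood out. Of the 31 tested, 2 were higher and 0 lower, against 7.42% of all genes higher and 1.32% lower (median log2 fold change −0.32 over the members and 0.0098 over all genes). At an unadjusted p under 0.05, 4 members were higher and 4 lower in edgeR, and DESeq2 also called none lower.

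*Cyp4e1* had 83.6 CPM (78 UMIs) and 79.6 CPM (91 UMIs) in oenocyte-like nuclei of the larger and smaller matrix, against 0 to 26.5 CPM (median 16.5) in the 16 other sums. The groups did not overlap, and the log2 fold change was 2.37 ± 0.24 (SE; adjusted p = 2.88804e-07, edgeR). *Cyp4e1* passed the filter in this fit only through its oenocyte-like sums. In a fit with unnamed clusters as groups of their own it passed without them, and the value was 1.99 ± 0.24. A UMI of *Cyp4e1* was found in 19.6% of oenocyte-like nuclei and 7.11% of neuron-like nuclei (4.98% and 0.474% after thinning), at median depths of 1739 and 1792 UMIs. Among unnamed clusters, cluster 22 (90.3 CPM in the smaller matrix) and cluster 5 (78.6 and 137 CPM) reached the same level. *Cyp4e1* overlaps the maltase gene *Mal-A1*, a midgut marker, on the opposite strand, and it had 21.9 and 13.9 CPM in midgut enterocyte-like nuclei.

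*Cyp4p2* was called higher in fat body-like, oenocyte-like and midgut enterocyte-like nuclei. With unnamed clusters as groups it was also higher in clusters 21, 24 and 32 and in cluster 19, which had 11 raised muscle markers. In that fit it was lower in clusters 1, 2, 5, 9, 10 and 13. It had 245 CPM (229 UMIs) and 393 CPM (449 UMIs) in oenocyte-like nuclei, and the log2 fold change there was 1.01 ± 0.16 (adjusted p = 1.59928e-04, edgeR). The larger-matrix sum lay below and the smaller-matrix sum above the 340 CPM of fat body-like nuclei, and both lay above neuron-like nuclei (89.5 and 160 CPM). Over the 16 other sums *Cyp4p2* ran from 89.5 to 518 CPM (median 143), and it was itself called lower in neuron-like nuclei. After thinning to 500 UMIs, 19.2% of oenocyte-like, 15.2% of fat body-like and 19.7% of midgut enterocyte-like nuclei held a UMI of *Cyp4p2*, against 4.74% of neuron-like nuclei.

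Of the other abundant members in oenocyte-like nuclei, *Cyp6v1* had 387 and 445 CPM, against 537 and 493 CPM in neuron-like nuclei, and *Cyp4aa1* had 285 and 158 CPM, against 384 and 228 CPM. Between the matrices, 25 members had at least 20 UMIs in oenocyte-like nuclei, of which 2 were at least 2-fold higher and 6 at least 2-fold lower in the larger matrix, while 5.80% and 5.91% of all genes were. The higher ones were *Cyp18a1* (77 and 45 UMIs, ratio 2.10, interval 1.43 to 3.10) and *Cyp317a1* (17 and 6 UMIs, ratio 3.47). *Cyp4ac2* had 1 UMI in the larger matrix against 21 UMIs in the smaller (ratio 0.0583, interval 0.00141 to 0.363). *Cyp6d5* (36 and 109 UMIs, ratio 0.404) and *Cyp6g1* (15 and 38 UMIs, ratio 0.483, interval 0.247 to 0.899) were lower in the larger matrix too, and so were *Cyp4p1* (0.495), *Cyp4d2* (0.490) and *Cyp12a5* (0.476). The intervals of *Cyp4d2* and *Cyp12a5* include 1.

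**Figure D4:**
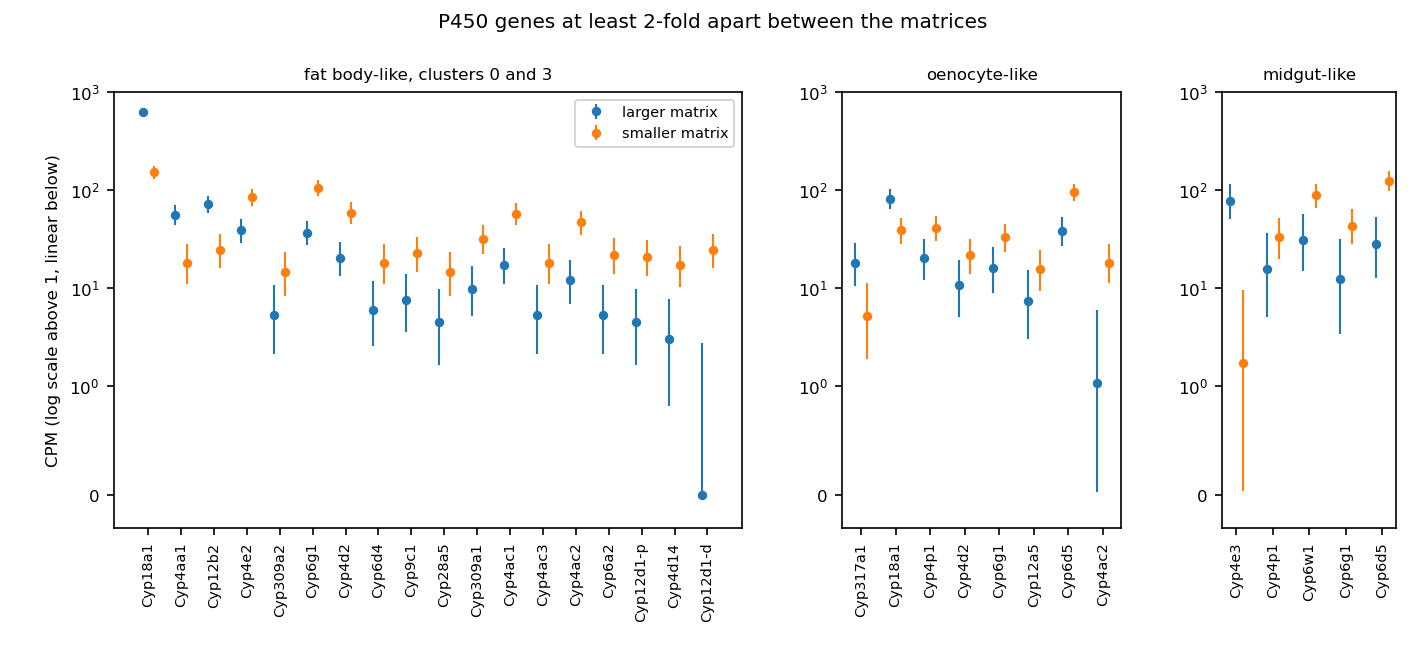
CPM (95% interval for counting error) in the larger (blue) and the smaller matrix (orange) of the P450 genes that differed at least 2-fold between them, by group. *Cyp18a1* is higher in the larger matrix in oenocyte-like nuclei (82.5 against 39.4 CPM) and fat body clusters (632 against 154 CPM), and *Cyp6g1* is lower in it in the 3 groups drawn.

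Midgut enterocyte-like nuclei were the gut class. Of the 31 members tested in them, 6 were higher and 1 lower, against 8.31% of all genes higher and 3.15% lower (median log2 fold change −0.0037 over the members, 0.0021 over all genes). *Cyp28d1*, a gene induced by nicotine, had 150 CPM (48 UMIs) and 138 CPM (79 UMIs) in midgut enterocyte-like nuclei, against 0 to 22.2 CPM (median 11.8) in the 16 other sums. The 2 midgut sums lay far above the rest, and the log2 fold change was 3.79 ± 0.27 (SE; adjusted p = 1.87524e-09, edgeR). *Cyp28d1*, *Cyp12a5* and *Cyp4e3* passed the filter only through their midgut sums. With unnamed clusters as groups *Cyp28d1* passed without them, at 3.93 ± 0.31. A UMI of *Cyp28d1* was found in 27.1% of midgut enterocyte-like and 6.64% of neuron-like nuclei (7.46% and 0.948% thinned), at median depths of 1843 and 1792 UMIs. Its neighbour *Cyp28d2* had 9.4 and 5.23 CPM in the same nuclei, from 3 UMIs in each matrix.

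*Cyp4p2* had 351 CPM (112 UMIs) and 518 CPM (297 UMIs), with a log2 fold change of 1.45 ± 0.17. The neighbouring pair *Cyp12a4* and *Cyp12a5* was higher in midgut enterocyte-like as in fat body-like nuclei, by 1.04 ± 0.26 and 2.21 ± 0.49 on the log2 scale. The higher midgut level of *Cyp12a5* was built into its selection by the filter, and without the filter its value was 2.20 ± 0.50. *Cyp317a1* had 56.4 and 31.4 CPM (18 UMIs in each matrix; 1.98 ± 0.42), where the highest other sum was trachea-like at 61.6 CPM. *Cyp4e3* was also called (3.47 ± 0.70), but 25 of its 26 UMIs came from 1 nucleus of the larger matrix, and the smaller matrix had 1 UMI. *Cyp18a1* was the only member lower in midgut enterocyte-like nuclei, at 59.5 and 33.1 CPM against 32.3 to 630.5 CPM (−1.15 ± 0.30; adjusted p = 0.0139, edgeR), and that call was lost without the matrix as a block (adjusted p = 0.486). Without the block, *Cyp4e3* (adjusted p = 0.0631) and *Cyp12a4* (adjusted p = 0.122) were not called by edgeR either.

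Between the matrices, 19 members had at least 20 UMIs in midgut enterocyte-like nuclei. Of these 1 was at least 2-fold higher in the larger matrix, *Cyp4e3* through the nucleus just named, and 4 were at least 2-fold lower, against 7.07% and 8.86% of all genes. The lower ones were *Cyp6d5* (9 and 72 UMIs, ratio 0.225, interval 0.0988 to 0.451), *Cyp6g1* (4 and 25 UMIs, 0.288), *Cyp6w1* (10 and 51 UMIs, 0.353) and *Cyp4p1* (5 and 19 UMIs, 0.473, interval 0.138 to 1.31). At the coarser clustering *Cyp4p1* gave 1.05, and at that setting *Cyp4e3* gave 0.

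*Cyp18a1* and *Cyp6g1* differed between the matrices in other classes too. *Cyp18a1* had ratios of 3.49 (interval 1.94 to 6.66) in neuron-like and 4.02 (2.76 to 5.97) in muscle-like nuclei, and 3.30 over all nuclei. *Cyp6g1* had 0.243 (0.0590 to 0.752) in neuron-like, 0.213 (0.0653 to 0.547) in muscle-like and 0.268 over all nuclei. In midgut enterocyte-like nuclei the ratio of *Cyp18a1* was 1.80 with an interval that includes 1 (0.901 to 3.59). Outside that class the ratio of *Cyp18a1* was thus above 1 and that of *Cyp6g1* below 1 beyond counting error in fat body, oenocyte-like, neuron-like and muscle-like nuclei alike. *Yp1*, a gene of fat body and ovary, also differed in those classes, with 2418 CPM in neuron-like and 2790 CPM in muscle-like nuclei of the larger matrix and no UMI in those of the smaller, and its part in the result was not tested. Classes share the free RNA of their matrix, so the ratios of different classes are not independent of each other.

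The unnamed clusters were compared in a fit with every unnamed cluster of at least 30 nuclei per matrix as a group of its own, 24 groups in all, chosen after seeing the data. It tested 6182 genes, 39 of them members. Cluster 1 raised none of the 12 epidermis markers, which summed to 627 and 705 CPM in it, against 1528 CPM in cluster 15, the highest sum among groups of at least 30 nuclei in a matrix. In cluster 1, 4 members were higher and 6 lower, while 17.6% of all genes were higher and 14.0% lower.

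*Cyp4aa1* had 4613 CPM (3456 UMIs, 6.16 per nucleus) and 3762 CPM (1415 UMIs, 4.65 per nucleus) in cluster 1 of the larger and smaller matrix. The next group was cluster 38 (35 nuclei of the smaller matrix) at 2166 CPM, followed by cluster 16 at 1125 and 954 CPM, and both share the leading genes *Fatp2* and *CG4374* with cluster 1. The log2 fold change was 4.91 ± 0.21 (adjusted p = 1.4669e-20, edgeR). Of the 865 nuclei 72.8% held a UMI of *Cyp4aa1* (61.3% thinned), against 17.1% of neuron-like nuclei (6.64% thinned), at median depths of 1169 and 1792 UMIs. *Cyp4aa1* overlaps *COX6AL* on the same strand, and *COX6AL*, which also leads cluster 1, had 84.1 and 122 CPM there, so that the counts of the 2 genes may be partly shared. *Cyp6v1* was higher in cluster 1 too (1236 and 997 CPM; 1.41 ± 0.17), whereas *Cyp4p2* (−2.40 ± 0.35) and *Cyp49a1* (−2.24 ± 0.43) were lower.

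*Cyp49a1* was higher in clusters 2, 5, 13 and 21. In cluster 2 (led by *Dop2R* and *Jhbp13*) it had 382 CPM (481 UMIs) and 610 CPM (42 UMIs), and in cluster 5 (led by *NPF* and *Elo68alpha*) 384 CPM (322 UMIs) and 579 CPM (38 UMIs). It had 296 and 329 CPM in cluster 13, led by *CG13285*, and 477 CPM in the 281 smaller-matrix nuclei of cluster 22, led by the cuticle genes *snsl*, *Gasp* and *Cht7*. The fat body-like and cluster 1 nuclei held at most 25.6 CPM. The log2 fold changes were 2.61 ± 0.24 in cluster 2, 2.61 ± 0.25 in cluster 5 1.93 ± 0.29 in cluster 13 and 1.45 ± 0.26 in cluster 21 (215 and 256 CPM). Cluster 21 had 9 members higher and 0 lower (8.78% and 5.69% of all genes; DESeq2 called 8 and 0, and edgeR 3 and 0 without the block), among them *Cyp6w1*, *Cyp18a1* and *Cyp4p2*. Another of the 9, *Cyp309a1*, passed the filter only through cluster 21, so its higher level was built into its selection. *Cyp49a1* lies opposite *Galphao*, a G protein gene.

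In cluster 2, 10 members were higher and 6 lower (18.2% and 14.6% of all genes), in cluster 5, 8 and 7 (19.5% and 15.5%), and in cluster 13, 5 and 4 (11.9% and 9.69%). *Cyp4e1* and *Cyp6a13* were among the higher members of each, and *Cyp6w1*, *Cyp18a1* and *Cyp4p2* among the lower members of each. Of the higher members, *Cyp6a17* passed the filter only through cluster 2, *Cyp6u1* only through cluster 5 and *Cyp6t1* only through cluster 13. A higher level was thus built into the selection of these genes. *Cyp6v1* peaked in cluster 2 at 1439 and 1337 CPM (2.49 and 2.0 UMIs per nucleus). *Cyp6a14* was higher in cluster 13 (125 and 67.2 CPM; 2.79 ± 0.42) and cluster 5 (52.4 and 45.7 CPM; 1.90 ± 0.38). Clusters 2 and 5 had only 46 and 47 nuclei in the smaller matrix.

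By 95% exact Poisson intervals, which cover counting error only, 10 of the 79 members had a level in 1 of 36 groups that overlapped no other group, against 11.6% of all genes with at least 3 UMIs. Among genes with at least 100 UMIs these were 8 of 54 members and 19.1% of all genes, shares near or below those of the rest. The 10 were *Cyp313a4*, *Cyp313b1* and *Cyp4g15* in trachea-like, *Cyp6a18* in Malpighian principal-like, *Cyp4p2* in midgut enterocyte-like, *Cyp4aa1* in cluster 1, *Cyp6v1* in cluster 2, *Cyp6d5* in cluster 10, *Cyp4e3* in cluster 12 and *Cyp6g2* in cluster 30 nuclei. These intervals take both matrices together, and a gene set apart by them may overlap within a matrix. In the larger matrix *Cyp4p2* had 351 CPM (289 to 422) in midgut enterocyte-like nuclei and 340 CPM (310 to 373) in cluster 0.

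**Figure D5:**
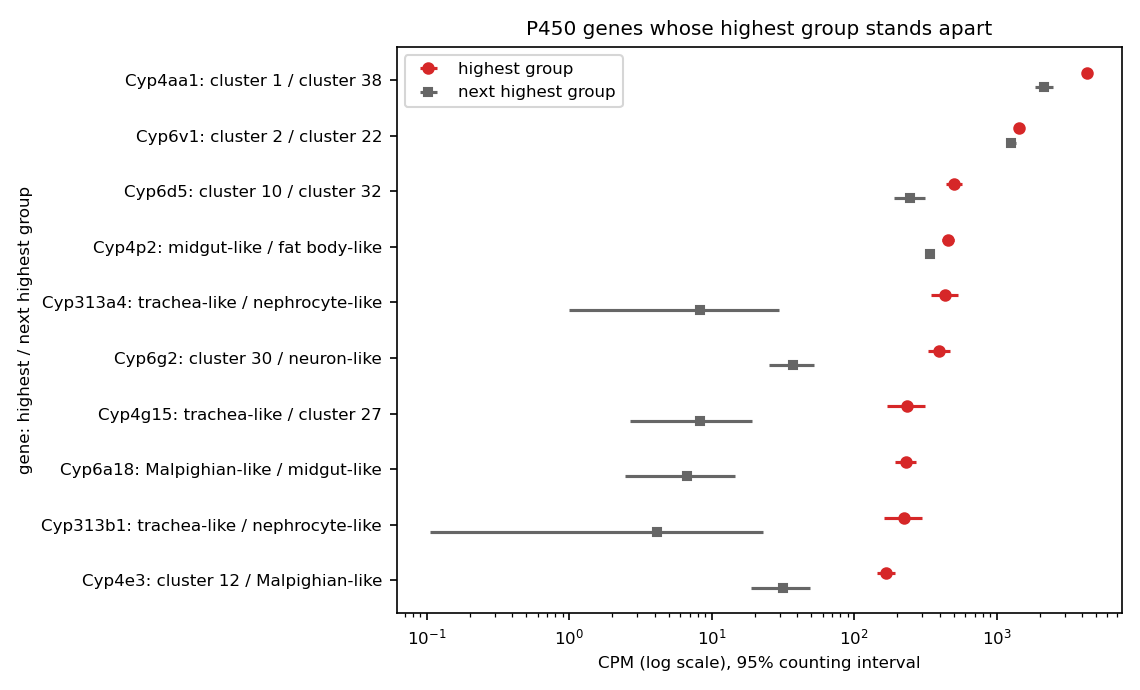
CPM (95% interval for counting error, log axis), both matrices together, of the 10 P450 genes set apart in 1 group, in that group and in the next highest group. On the log axis *Cyp313b1* (224 against 4.14 CPM) and *Cyp313a4* (432 against 8.28 CPM) have the widest gaps, and *Cyp6v1* (1434 against 1258 CPM) the narrowest.

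Trachea-like nuclei (34 of the larger matrix, 56 of the smaller) had 4 members higher and 0 lower in the same fit (3.88% and 0.324% of all genes; DESeq2 called 2 higher and 0 lower, and 1 member was lower at an unadjusted p under 0.05 in edgeR). *Cyp313a4* had 420 CPM (33 UMIs) and 440 CPM (50 UMIs) there, and the next group, both matrices together, reached 8.28 CPM. *Cyp313b1* had 331 and 150 CPM, and *Cyp4g15*, a paralogue of the hydrocarbon-forming *Cyp4g1*, had 229 and 238 CPM. A UMI of at least 2 of these 3 genes was found in 32 of 90 trachea-like nuclei and in 12 of 13778 others. All 3 passed the filter only through their trachea-like sums, so their calls were built into their selection and no fold change is given. DESeq2 called *Cyp313a4*, but neither *Cyp313b1* (adjusted p = 0.451) nor *Cyp4g15* (adjusted p = 0.123). *Cyp18a1* was the fourth member (280 and 158 CPM; 1.96 ± 0.33).

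Malpighian principal-like nuclei, the main urine-secreting cell type of the renal tubule, also had 4 higher and 0 lower (5.74% and 0.0971% of all genes; DESeq2 called as many, edgeR 3 and 0 without the block, and 2 members were lower at an unadjusted p under 0.05 in edgeR). The fit of named classes also called 4, with *Cyp4p3* in place of *Cyp12a4*. There *Cyp4p3*, *Cyp4e3* and *Cyp6a18* passed the filter only through the Malpighian principal-like sums, and 15 of 36 *Cyp4p3* UMIs lay in 1 nucleus. *Cyp6a18* had 298 CPM (78 UMIs) and 179 CPM (61 UMIs), against at most 6.72 CPM in any other group, both matrices together. It passed the filter only through these sums, as did *Cyp4e3*, so no fold change is given. A UMI of *Cyp6a18* was found in 24.8% of these nuclei and 0.474% of neuron-like nuclei, at median depths of 2330 and 1792 UMIs. *Cyp12a4* and *Cyp6g1* rose by 1.90 each on the log2 scale, with SEs of 0.32 and 0.34. *Cyp4e3* rested on 18 UMIs of the larger and 1 of the smaller matrix, 10 of them in 1 nucleus.

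*Cyp6g2* and *Cyp4e3* were found in few nuclei. *Cyp6g2*, known for its part in juvenile hormone synthesis in the corpora allata, had 597 CPM (80 UMIs) and 231 CPM (38 UMIs) in cluster 30, a cluster led by the hindgut gene *byn* among others, but all 118 UMIs lay in 6 of its 144 nuclei, 60, 29 and 15 of them in the top 3. Over all nuclei, 163 of 248 *Cyp6g2* UMIs lay in the 6 nuclei that held at least 10. In cluster 30, *Cyp6g2*, which passed the filter only through it, was the only member higher and *Cyp4aa1* the only one lower, while 8.86% of all genes were higher and 2.35% lower. The ecdysone synthesis genes *spok* (4 and 14 UMIs; 2.40 ± 0.60) and *nvd* (26 and 1 UMIs; 2.84 ± 0.49) were higher in cluster 30 too. *spok* was also called higher in cluster 19, and how many nuclei held these UMIs is not given here. *Cyp4e3* had 199 UMIs in 80 of the 466 larger-matrix nuclei of cluster 12, a cluster led by *CG34327* and the cuticle gene *Cpr49Ab* (169 CPM), and over all nuclei 287 UMIs in the larger against 15 in the smaller matrix (ratio 18.2, interval 10.8 to 32.9). Cluster 12 had only 1 nucleus in the smaller matrix, so cluster and matrix cannot be told apart.

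Cluster 10, led by *Poxm* and *Jhbp12*, had 8 members higher and 2 lower (7.73% and 2.90% of all genes). *Cyp6d5* had 211 CPM (52 UMIs) and 793 CPM (196 UMIs) there (2.98 ± 0.25), and *Cyp9b2* had 89.4 and 81.0 CPM (3.84 ± 0.45), a level shared with cluster 12 at 98.3 CPM. *Cyp6d5* was lower in the larger matrix here as in fat body, oenocyte and midgut nuclei. Its 211 CPM in cluster 10 of the larger matrix lay near the 187 CPM of fat body-like nuclei there. In the smaller matrix the 2 levels were 793 and 315 CPM. In cluster 17, led by *Shawl*, 3 members were higher and 3 lower (7.17% and 2.26% of all genes), and *Cyp28d1* had 112 and 110 CPM there (3.58 ± 0.39), the level nearest to that of midgut.

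Electron donors were described in the same way. Of 6 redox partners, 4 passed the filter in the comparison of named classes. In oenocyte-like nuclei 2 of the tested members were higher, and *Cyp4g1* was not among those tested. *Cpr*, the P450 reductase, had 865 CPM (807 UMIs) and 924 CPM (1056 UMIs) in these nuclei, against 141 and 164 CPM in fat body-like and 128 and 125 CPM in midgut enterocyte-like nuclei (log2 fold change 2.79 ± 0.16; adjusted p = 3.32284e-11, edgeR). *Cyt-b5* was higher as well, at 480 and 511 CPM (1.40 ± 0.15). In fat body-like nuclei, with 15 higher P450s, *Cpr* (0.02 ± 0.20; adjusted p = 0.986) and *Cyt-b5* (−0.17 ± 0.18; adjusted p = 0.501) were not called by edgeR, and *Cyt-b5-r*, a cytochrome b5-related gene, was higher (1049 and 708 CPM; 2.42 ± 0.18). None of the 4 was called in midgut enterocyte-like nuclei by edgeR, where *Cyt-b5* alone passed an unadjusted p of 0.05 (−0.49 ± 0.20). In clusters 1, 2 and 5, *Cpr* and *Cyt-b5* were higher and *Cyt-b5-r* lower. In cluster 9, where 1 P450 was higher and 7 lower (14.3% and 11.7% of all genes), *Cpr*, *Cyt-b5* and *Cyt-b5-r* were all lower, by −1.34 ± 0.27, −0.65 ± 0.23 and −1.57 ± 0.42 on the log2 scale.

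Of the ecdysone synthesis list 6 of 7 genes were matched and 3 tested. Only *shd*, a P450 gene outside the Cyp prefix whose enzyme turns ecdysone into its active form, was called in fat body-like, oenocyte-like or midgut enterocyte-like nuclei, with 46.7 CPM (62 UMIs) and 101 CPM (111 UMIs) in fat body-like nuclei, against 4.29 and 14.0 CPM in oenocyte-like nuclei (3.60 ± 0.30; adjusted p = 1.08328e-08, edgeR). The ecdysone-inactivating *Cyp18a1* was higher in the same class. Of 7 xenobiotic regulators 5 were tested. The stress factor gene *cnc* was higher in fat body-like nuclei (2769.7 and 4087 CPM; 1.26 ± 0.13), and *Keap1*, which encodes its repressor, in oenocyte-like nuclei (204 and 155 CPM; 1.68 ± 0.22). These calls were not particular to fat body-like nuclei. With unnamed clusters as groups, *shd*, *Cyt-b5-r* and *cnc* were also higher in cluster 24, led by *Obp99b*, and in cluster 32, led by *CG13676*. Among the members, *Cyp6w1*, *Cyp18a1* and *Cyp4p2* were higher in both, while *Cyp4e1* was lower in cluster 24 and *Cyp49a1* in cluster 32.

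The neighbours *Cyp4ac1*, *Cyp4ac2* and *Cyp4ac3* were compared by group. Counting groups with at least 20 UMIs, *Cyp4ac1* was highest in cluster 27 (38.1 CPM, 23 UMIs), *Cyp4ac2* in fat body-like nuclei, and *Cyp4ac3* had its highest level in cluster 19, led by the heart genes *H15* and *tin* with 11 raised muscle markers, at 107 CPM (64 UMIs) and 29.6 CPM (30 UMIs). In cluster 19, 9 members were higher and 1 lower (16.4% and 3.67% of all genes). The higher ones included *Cyp4ac3*, *Cyp6a20* (45.3 and 16.8 CPM) and *Cyp28d2* (36.9 and 26.7 CPM), which passed the filter only through cluster 19, so no fold change is given. As a description over the 18 sums of the named classes, the member most like *Cyp6w1* was *Cyp6t3* (Pearson r = 0.77 of log levels), the one most like *Cyp4p2* was *Cyp309a1* (0.70), and no member came above 0.46 for *Cyp4aa1* or 0.33 for *Cyp6v1*. These sums share the 2 libraries and their depth.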

How the data were processed

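Nuclei were profiled with 10x Genomics droplets. The deposited tables hold raw UMI counts per gene and nucleus, made by the authors with Cell Ranger, beside which the submitters' processing notes name FastQC and Seurat. The labels and the study's methods name different versions of the kit. Tool versions, genome build, annotation and strand use were not given in the sources used here. Whether the 2 samples differ in more than sex is not known, and neither table is recorded under a sample or names one in its columns. The table names carry female and male and were not used to set groups.

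Nuclei with at least 200 genes (13867 of 13868) were scaled to 10000 UMIs and clustered with scanpy 1.11.5 and leidenalg 0.10.2 (Python 3.11.15) on 2000 variable genes, 30 principal components and 15 neighbours at resolution 2. The 79 P450 genes, *Cyp4g1*, the cyclophilin genes *Cyp1* and *Cyp40*, the pathway lists, Y-linked genes and roX genes, 114 in sum, took no part in clustering. No doublet caller was run, so doublets may remain. A cluster was named from at least 4 raised markers. This minimum, the handling of conflicting marker lists and the override by neural progenitor genes were set after clusters were seen. UMIs were summed by class and matrix for 9 classes with at least 30 nuclei per matrix and tested with edgeR 4.0.16 (R 4.3.3; TMM, filterByExpr, quasi-likelihood test, matrix as block), each class against the mean of the others, with Benjamini-Hochberg adjustment over all genes and a threshold of 0.05. Each class thus has 1 sum per matrix, and p-values measure the spread between these sums. Classes share the free RNA of their matrix. Shares of nuclei were also taken after thinning each nucleus to 500 UMIs. Ratios between matrices carry 95% exact conditional Poisson intervals, and a count of 0 allows 3 UMIs.

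The members, lists and naming rule were chosen with earlier results of these data known. The genes named are, in each class, the 8 members with the highest CPM, the 8 called with the largest fold change in each direction and the 8 with the largest ratio between matrices. Members in unnamed clusters, in trachea-like and in Malpighian principal-like nuclei were named after their values were seen. The script for the test was checked on simulated data for fat body-like, oenocyte-like and midgut enterocyte-like nuclei. It recovered 59 of 93, 59 of 89 and 42 of 90 changes of 2-fold in these classes. Of 8-fold changes it recovered 91 of 92, 91 of 93 and 86 of 91. It also called 20, 13 and 11 genes that had not been changed. Alternatives were DESeq2 1.42.0, no filter, no block, each class against all other nuclei, resolution 1, nuclei with at least 1000 UMIs, each matrix alone and thinning.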

Additional observations from a re-analysis of the deposited data

How the results depend on the processing

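The number of P450 genes called moved with several settings. In fat body-like nuclei 34 of 78 members were higher without the filter on low counts and 31 against all other nuclei, in place of 15, and all 15 were among both, while 8 were lower against all other nuclei and 2 without the top nucleus of each member, in place of 4. In oenocyte-like nuclei 5 members were higher with unnamed clusters as groups and 4 without the top nucleus, in place of 2, and 2 were lower against all other nuclei, 1 at resolution 1 and 1 with unnamed clusters as groups, in place of 0. In midgut enterocyte-like nuclei the 1 lower member became 4 against all other nuclei and 0 without the replicate block, at resolution 1 or with unnamed clusters as groups. Without the replicate block 13 members were higher in fat body-like, 2 in oenocyte-like and 4 in midgut enterocyte-like nuclei. In the fit of unnamed clusters, the lower calls in clusters 10 and 19 became 0 without the block, those in clusters 2 and 5 became 3 and 2 without the top nucleus, and the higher calls in cluster 19 became 4. The 9 higher calls in cluster 21 became 3 without the block and 14 without the top nucleus, and the 1 in cluster 9 became 0 without the block. The 2 settings added after seeing the data were unnamed clusters as groups and leaving out the top nucleus.

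Between matrices, 4 members were higher in oenocyte-like nuclei of the larger matrix without the top nucleus of each matrix, in place of 2, and 3 lower in nuclei with at least 1000 UMIs, in place of 6. In midgut enterocyte-like nuclei 2 were higher at resolution 1 and 0 without the top nucleus, in place of 1. At resolution 1 the midgut enterocyte-like ratio of *Cyp4e3* was 0 and that of *Cyp4p1* was 1.05. With unnamed clusters as groups, edgeR called *Cyp6g2* higher in oenocyte-like nuclei (2.83), where 14 of 19 UMIs lay in 1 nucleus, but its value in the larger matrix alone was −0.0020. The cause was not tested for these changes. Over named members, 257 fold changes were kept, 18 were no longer past the threshold, 48 values moved by more than their SE and 1 changed sign. Kept means the same direction and side of the threshold. For each matrix alone, where there is no p-value, it means a value within the SE. In the larger matrix alone 26 values were kept, 19 moved and 1 changed sign. The smaller matrix alone kept 17 values, and 29 moved. No alternative was run for epidermis, since no cluster was named so. Depth limits low members: 5 had fewer than 20 UMIs in all nuclei.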
